A study of Mus musculus with 9 samples.

Results

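The comparison described here is liver at 20 to 22 months of age against liver at 2 months, both untreated. It rests on 6 of the 9 RNA sequencing libraries of the study, chosen by their labels: 3 libraries from untreated C57Bl6 mice aged 2 months (young) and 3 from untreated C57Bl6 mice aged 20 to 22 months (aged), all on standard chow. The other 3 libraries, from animals of the same age whose chow contained PD-0332991 for 2 weeks, are outside the contrast and entered only the estimate of the spread between libraries. PD-0332991 (palbociclib) is an inhibitor of CDK4 and CDK6, kinases that drive cells into division. The series is titled for a role of Cdk4 in the fatty liver of age, and the untreated groups compare the ages without the drug. No genotype other than the strain is given, and nothing in the labels shows that replicates were different animals, so every p-value below measures only the spread between these libraries. The deposited values are TPM, a relative abundance per transcript length that keeps no sequencing depth, so no counting error can be given.

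The liver takes up, converts and secretes much of what circulates in blood. Its hepatocytes divide the work along the lobule: cells near the portal vein make glucose and urea, and cells near the central vein carry most cytochrome P450 enzymes. Fat handling is set largely by the nuclear receptor PPAR-alpha, which drives fatty acid oxidation, growth hormone pulses set sex-biased genes, and a circadian clock in each hepatocyte times many of these pathways over the day. Ageing livers are known for fat accumulation, altered drug metabolism and low-grade inflammation.

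Aged replicate 3 stood apart from the other aged libraries. In a principal component analysis of the 6 untreated libraries, component 1 (38.2% of the variance) placed the young libraries at -17.33, -11.83 and -11.50, aged replicates 1 and 2 at 28.17 and 21.85, and aged replicate 3 at -9.36, beside the young ones. On component 2 (25.5%) aged replicate 3 was alone at -28.71. Among the 5903 genes that averaged at least 5 TPM, aged replicate 3 lay outside the range of all 8 other libraries by at least 1 on the log2 scale in 8 genes, against 0 to 5 genes for each other library. Those below the range included Socs2 and Cish, both feedback inhibitors of growth hormone signalling, Onecut1, a hepatocyte transcription factor, Alas1, the first enzyme of heme synthesis, and the metallothionein gene Mt1. These genes were picked out after their values were seen. Socs2 was at 18.3, 21.4 and 20.5 TPM in young replicates 1 to 3 and at 21.9, 48.7 and 1.02 TPM in aged replicates 1 to 3. Onecut1 was at 15.9, 12.8 and 14.9 TPM in young and at 19.4, 19 and 0.913 TPM in aged replicates 1 to 3. Among the 6 untreated libraries Onecut1 was thus low in aged replicate 3 alone, while Socs2 was also high in aged replicate 2. In treated replicates 1 to 3, Onecut1 was at 3.56, 3.51 and 3.05 TPM, also below the young values. Neither gene was called (limma adjusted p 0.827 for Socs2 and 0.753 for Onecut1). Counts of calls without aged replicate 3 are therefore given beside the lists described below. That fit called 3.72% of all genes higher and 3.13% lower. The library was left out after its values were seen, so calls and adjusted p-values without it are descriptive only.

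The hepatocyte markers together held 64765.2 to 71504.4 TPM in young and 66836.9 to 70317.6 TPM in aged libraries, with Alb, the albumin gene, listed at 0 throughout. Pairs of libraries correlated over genes at r from 0.970 to 0.988 within an age (6 pairs) and from 0.969 to 0.981 between ages (9 pairs). A TPM of 1 was reached by 9794 to 9989 genes per library, and the 10 most abundant genes held 21.3% to 22.2% of the listed TPM in young and 18.6% to 20.4% in aged libraries. In an exact two-sided permutation test between the ages, 3 against 3 libraries allow no p below 0.1. None of 15 such per-library measures, marker sums included, could therefore pass, and the lowest adjusted p was 0.375. A p of 0.1 was reached by the number of genes above 0 and the share of the 10 most abundant genes. The marker sums of monocytes and dendritic cells and of pancreas and gut reached it as well.

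Of 10161 genes tested with limma, 112 passed an adjusted p of 0.05, or 1.10% of the genes tested. In aged liver 66 were higher (0.650%) and 46 lower (0.453%). The change reached 1 on the log2 scale in 47 of them, 29 higher and 18 lower, and the median log2 fold change of all genes tested was -0.01. In all 112 genes the 3 aged values lay to one side of the 3 young values, as they did in 8.82% of all genes upward and 9.57% downward. With aged replicate 3 left out, the same model called 696 genes (6.85%), 378 higher (3.72%) and 318 lower (3.13%), and all 112 were among them. Leaving out young replicate 1, 2 or 3 ended 96, 79 and 67 of the 112 calls, aged replicate 1 or 2 ended 76 and 58, and treated replicate 1, 2 or 3 ended 38, 32 and 44, with adjusted p of the lost calls from 0.0505 to 0.197. All 112 kept their direction in all of these fits. In a fit of the 6 untreated libraries alone, 46 of the 112 passed. Called in all 9 fits were 14 genes, of which 12 were higher in aged liver and Lifr and Scarna6 lower. Scarna6 reached 1 TPM only in the 3 young libraries and so passed the filter on low values through the group where it is high, which leaves its call without weight. Among the 12 were Serpine2, Serpinb1a, Susd4, Ifi27l2b, Cyp2c37, Slc3a1, Dpy19l3, Smim22, Atp11a and Plekhb1.

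**Figure D1:**
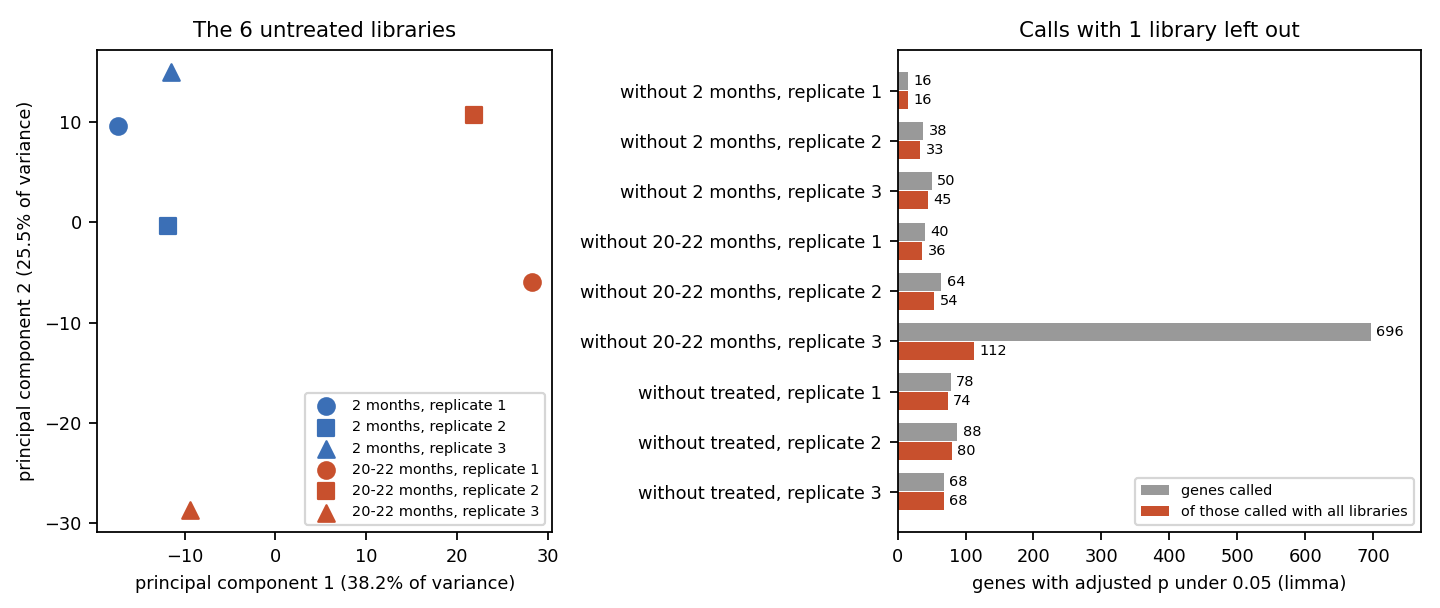
Left, scores of the 6 untreated libraries on principal components 1 and 2 (blue, 2 months; red, 20 to 22 months; the symbol gives the replicate). Aged replicate 3 lies at -9.36 on component 1, close to the young libraries. Right, bars give the genes called by limma with each library left out (grey) and how many of them are among the 112 called with all libraries (red): 696 without aged replicate 3 and 16 to 88 without any other.

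The called genes are described below by function, in groups made after their values were seen. The first group holds 4 genes of protease inhibitors or complement regulation, all of which rose, and the coagulation gene F11, which fell. Serpine2, a secreted inhibitor of thrombin and related proteases (GRCm38, chromosome 1, 79794317 to 79858665), was at 3.15, 3.5 and 2.62 TPM in young and at 15.8, 19 and 12.9 TPM in aged replicates 1 to 3. The lowest aged library was above the highest young one by a wide margin, and the log2 fold change was 2.18 ± 0.17 (SE; limma adjusted p = 0.000355, the lowest of all genes). Serpinb1a, an intracellular inhibitor of neutrophil proteases (chromosome 13, 32842092 to 32853206), was at 1.34, 1.64 and 1.34 TPM in young and at 8.21, 10.2 and 11.2 TPM in aged libraries. Here aged replicate 3 was the highest of all (log2 fold change 2.41 ± 0.26, limma adjusted p = 0.00451). Susd4, a membrane regulator of complement (chromosome 1, 182764044 to 182896596), went from 3.27, 2.48 and 3.59 TPM to 10.4, 8.9 and 9.44 TPM, with all aged values close together. Spint2, an inhibitor of hepatocyte growth factor activator and other surface proteases, rose from 68.8, 75.0 and 64.8 TPM to 109.4, 106.3 and 106.0 TPM. F11, the zymogen of coagulation factor XI (chromosome 8, 45240659 to 45262055), was at 29.3, 28.5 and 26.5 TPM in young and at 10.5, 13.5 and 20.6 TPM in aged libraries, so aged replicate 3 lay nearest to the young ones. Its call was near the threshold (limma adjusted p = 0.04995) and held in 1 of the 9 fits with a library left out. Among the other 4, the calls of Serpine2, Serpinb1a and Susd4 held in all 9 and that of Spint2 in 8, failing without young replicate 1. The adjusted p of lost calls ran from 0.0514 to 0.187.

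The wider lists of these systems were counted as well. Of 27 tested serpin genes 2 were called, both higher, where 0.650% of all genes were. The list's median log2 fold change was -0.02, of either sign with a library left out (5 called higher and 1 lower without aged replicate 3). Serpina6, the carrier of corticosteroids in blood, was at 126.3, 111.9 and 91.1 TPM in young and at 67.0, 78.8 and 79.7 TPM in aged libraries (limma adjusted p = 0.0708). Of 33 complement genes only Susd4 was called, where 0.650% of all genes were called higher. Without aged replicate 3, 2 were called, both higher, where 3.72% of all genes were. C4a was at 3.0, 2.53 and 4.74 TPM in young and at 47.8, 52.9 and 11.7 TPM in aged libraries, without overlap but with 1 aged library much nearer to the young ones (log2 fold change 3.05, limma adjusted p = 0.0569; 3.73 and 1.94e-05 without aged replicate 3). Of 28 coagulation genes only F11 was called with all libraries, where 0.453% of all genes were called lower. Without aged replicate 3, 3 were higher and 3 lower, the lower ones including Klkb1, the plasma prekallikrein gene that acts with F11 in contact activation (75.7, 71.6 and 78.5 TPM in young; 46.0, 56.2 and 69.0 TPM in aged libraries; limma adjusted p = 0.165, and 0.0114 without aged replicate 3).

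**Figure D2:**
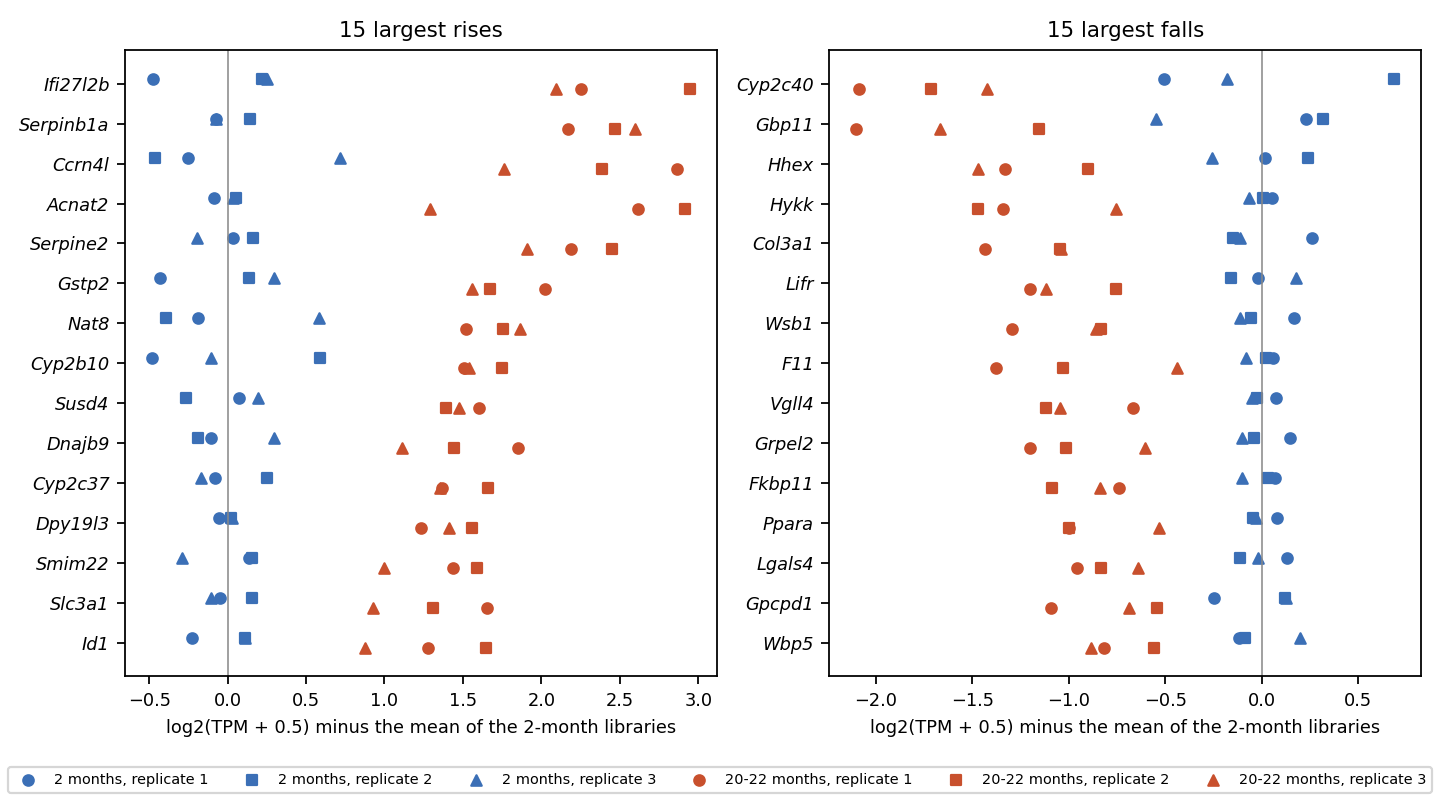
Each point is a library: log2(TPM + 0.5) minus the mean of the 3 libraries of 2 months, for the 15 largest rises and 15 largest falls that limma called, among genes averaging at least 5 TPM in one of the ages. Aged libraries (red) and young libraries (blue) do not overlap in any of the 30 genes, a property the choice of genes required. Aged replicate 3 (red triangles) is the aged library nearest to the young mean for 60 of all 112 called genes. It is so for 39.1% of all genes tested.

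Cytochrome P450 genes of the same subfamily changed in opposite directions. Cyp2c37, a P450 gene of the pericentral hepatocytes (chromosome 19, 39992424 to 40012243), was at 113.8, 143.6 and 107.2 TPM in young and at 311.7, 381.8 and 309.4 TPM in aged replicates 1 to 3. Every aged library held more than 2 times the highest young value, and the rise (log2 fold change 1.46 ± 0.16, limma adjusted p = 0.00407) was called in all 9 fits with a library left out. Cyp2c40 (chromosome 19, 39767073 to 39812814) fell from 6.03, 14.4 and 7.68 TPM to 1.68, 2.33 and 2.96 TPM (log2 fold change -1.74 ± 0.30, limma adjusted p = 0.0276). Cyp2c69 fell alongside, from 3.06, 7.22 and 3.41 TPM to 0.895, 1.16 and 0.706 TPM (log2 fold change -1.76 ± 0.27, limma adjusted p = 0.0133). Young replicate 2 was, in both genes, the highest library at about 2 times the next young value. The other 9 tested Cyp2c genes were not called, with log2 fold changes from 0.53 for Cyp2c54 (limma adjusted p = 0.282) down to -0.33 for Cyp2c44 (0.261). Cyp2c29, the most abundant, was at 976.8, 897.8 and 983.9 TPM in young and at 720.2, 1186.6 and 958.7 TPM in aged libraries, with full overlap.

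Cyp2c40 and Cyp2c69 are near copies, so their values are not independent. In GENCODE M21 transcripts, 72.6% of the 31-base words of Cyp2c40 also occur in another gene (46.6% in Cyp2c69), and 64.9% of those of Cyp2c69 occur elsewhere; how the reads of such stretches were divided is not given in the sources used here. For Cyp2c37 the shared portion is 47.4%, most of it with Cyp2c50 (34.2%), which was not called (316.4, 436.1 and 353.4 TPM in young; 410.9, 500.2 and 490.1 TPM in aged libraries). The likeness of the pair that fell together extends to the start sites. The promoter windows below, from RefSeq on GRCm38.p6, run from 250 bases before to 50 bases after the annotated start, written 5′ to 3′ on the strand of the gene, with capitals marking the bases that differ between the pair. Over the 270 bases that align without a gap, 267 are identical and 3 differ, and the windows are offset because the annotated start sites do not coincide. In an alignment of the whole windows with gaps counted, the pair was 80.9% identical. Cyp2c37 was 45.3% identical to Cyp2c40 and 54.4% identical to Cyp2c69. For comparison, Gstp1 was 44.5% and 46.7% identical to Cyp2c40 and Cyp2c69, and Gstp2 44.8% and 49.1%.
Cyp2c40 promoter, chr19:39812765-39813064, minus strand: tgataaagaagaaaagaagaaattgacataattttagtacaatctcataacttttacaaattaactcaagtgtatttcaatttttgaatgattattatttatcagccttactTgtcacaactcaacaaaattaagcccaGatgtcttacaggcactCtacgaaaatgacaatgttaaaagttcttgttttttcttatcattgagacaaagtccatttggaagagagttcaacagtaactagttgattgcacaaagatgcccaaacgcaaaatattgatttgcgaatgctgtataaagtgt
Cyp2c69 promoter, chr19:39886720-39887019, minus strand: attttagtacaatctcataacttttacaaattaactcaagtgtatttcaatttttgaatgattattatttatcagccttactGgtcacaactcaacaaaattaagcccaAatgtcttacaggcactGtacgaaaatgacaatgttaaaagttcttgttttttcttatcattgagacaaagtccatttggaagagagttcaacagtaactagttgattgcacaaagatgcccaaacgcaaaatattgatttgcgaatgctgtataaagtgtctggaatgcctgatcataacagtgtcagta

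Cyp2b10, the classical target of the drug receptor CAR (chromosome 7, 25897658 to 25926624), was at 2.53, 5.86 and 3.43 TPM in young and at 11.5, 13.7 and 11.8 TPM in aged libraries (log2 fold change 1.6 ± 0.24, limma adjusted p = 0.0133). Nr1i3, which encodes CAR itself, was not called (59.5, 49.8 and 42.1 TPM in young; 33.5, 44.7 and 47.6 TPM in aged libraries; limma adjusted p = 0.545). Cyp2d13, annotated as a transcribed pseudogene, fell from 108.3, 94.3 and 86.0 TPM to 58.8, 60.4 and 67.1 TPM, and the flavin monooxygenase gene Fmo4 fell from 4.02, 3.06 and 2.41 TPM to 0.95, 1.2 and 1.61 TPM. Of the 34 tested P450 genes of families 1 to 3, 2 were called higher and 3 lower, where 0.650% and 0.453% of all genes were, and 4 and 3 without aged replicate 3. The median log2 fold change of -0.02 changed sign with a library left out. Of the 5 P450 calls and that of Fmo4, young replicate 1, 2 or 3 left out ended 3, 2 and 2, aged replicate 1 or 2 ended 4 and 3, and treated replicate 3 ended 2 (limma adjusted p 0.0508 to 0.144).

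**Figure D3:**
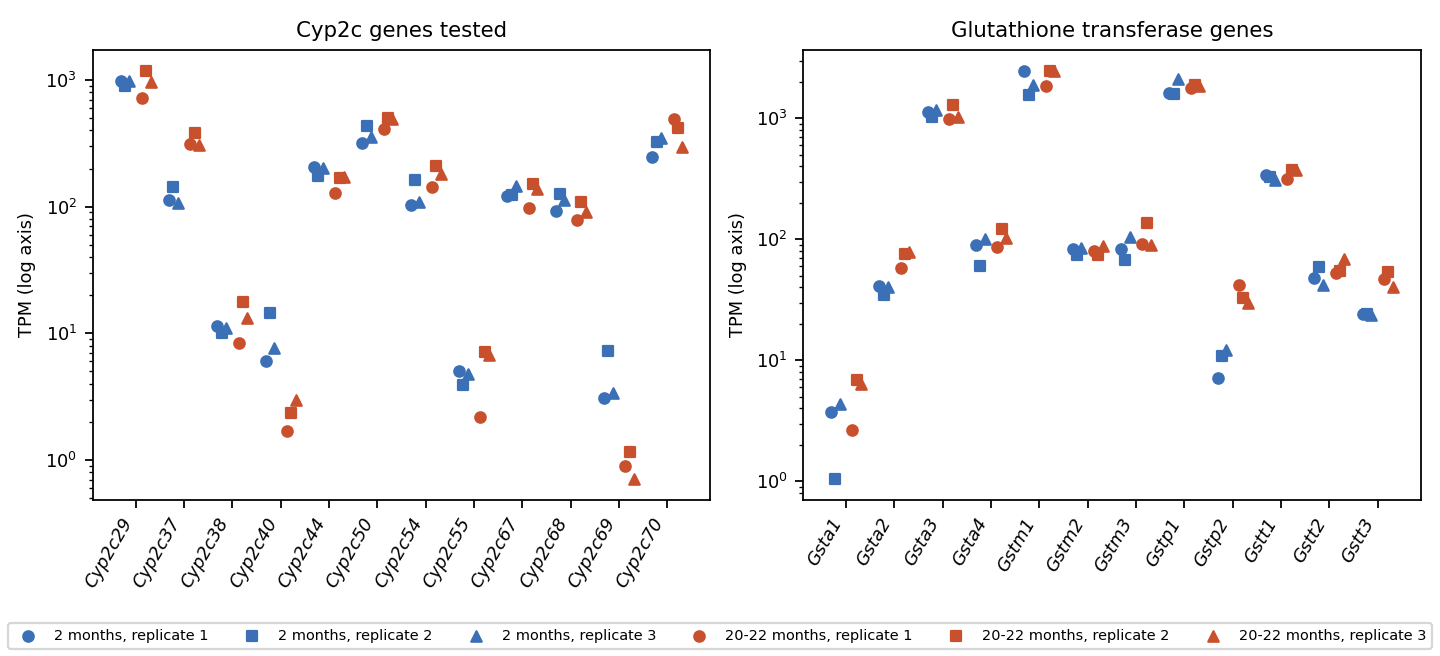
TPM of all tested Cyp2c genes (left) and of 12 glutathione transferase genes (right) on a log axis; each point is a library (blue, 2 months; red, 20 to 22 months). Cyp2c37 is higher and Cyp2c40 and Cyp2c69 are lower in all aged libraries, and Gstp2 (7.19 to 12.2 against 30 to 41.6 TPM) separates while Gstp1, on the same chromosome, does not.

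Conjugation enzymes, which attach glutathione, acetyl or amino acid groups to drugs and metabolites, gave 5 rises and 2 falls. Gstp2 (chromosome 19, 4040288 to 4042221), a minor glutathione transferase of the pi class, was at 7.19, 10.9 and 12.2 TPM in young and at 41.6, 32.6 and 30 TPM in aged libraries (log2 fold change 1.75 ± 0.25, limma adjusted p = 0.0133). Its abundant neighbour Gstp1 was at 1618.1, 1582.2 and 2129.5 TPM in young and at 1790.4, 1886.1 and 1835.4 TPM in aged libraries and was not called (log2 fold change 0.06, limma adjusted p = 0.882). The words that Gstp2 shares with Gstp1 make up 54.8% of its transcripts. How reads were divided between this pair was not tested. Gsta2 rose from 41.0, 34.3 and 40.4 TPM to 57.9, 75.3 and 78.6 TPM and Gstt3 from 24.2, 24.0 and 23.8 TPM to 47.0, 53.2 and 40.2 TPM. Of the words of Gsta2, 60.7% occur in other genes (44.7% in Gsta1), so the same limit holds for its value. Nat8, which completes the mercapturic acid route of glutathione conjugates (chromosome 6, 85830387 to 85836857), rose from 12.3, 10.6 and 21.4 TPM to 41.3, 48.7 and 52.6 TPM, and its lowest aged value was nearly 2 times the highest young one. Acnat2, an acyl-CoA to amino acid N-acyltransferase (chromosome 4, 49374458 to 49408151), was at 6.97, 7.76 and 7.62 TPM in young and at 48.1, 59.4 and 18.9 TPM in aged libraries (log2 fold change 2.27 ± 0.40, limma adjusted p = 0.0447). Its paralog Acnat1, with which 37.1% of its words are shared, stayed uncalled at 13.9 to 18.6 TPM in young and 16.5 to 18.2 TPM in aged libraries.

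The falls were those of Keg1, of the glycine N-acyltransferase family (189.4, 169.7 and 206.6 TPM in young; 102.3, 125.4 and 130.3 TPM in aged libraries), and of Acsm3, a medium-chain acyl-CoA synthetase (34.6, 36.8 and 37.9 TPM; 20.7, 25.9 and 25.1 TPM). Of the 47 tested conjugation enzymes on the list, 4 were called, all higher, against 0.650% of all genes. The calls went both ways without aged replicate 3, 5 higher and 4 lower, and the list's median of 0.02 changed sign under other settings. Ugt2b1, a glucuronosyltransferase, was at 193.8, 230.3 and 276.9 TPM in young and at 144.2, 161.3 and 164.0 TPM in aged libraries (limma adjusted p = 0.0636), and the sulfotransferase gene Sult1a1 was at 133.5, 132.0 and 125.9 TPM against 189.2, 223.3 and 158.0 TPM (0.0749). All 7 conjugation calls were lost without young replicate 1, 4 without young replicate 2 and 4 without young replicate 3, while aged replicate 1 or 2 left out ended 3 and 4 and treated replicate 1, 2 or 3 ended 2, 1 and 1 (limma adjusted p up to 0.17).

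In lipid and glycogen metabolism 3 genes rose and 3 fell. Ppara, the receptor that switches on fatty acid oxidation (chromosome 15, 85734910 to 85806851), was at 21.3, 19.5 and 19.7 TPM in young and at 9.83, 9.83 and 13.8 TPM in aged replicates 1 to 3. The young libraries lay within 2 TPM of each other and above every aged one (log2 fold change -0.84 ± 0.13, limma adjusted p = 0.0144). Its relative Ppard rose from 1.9, 1.43 and 1.19 TPM to 3.08, 3.67 and 2.61 TPM (log2 fold change 0.86 ± 0.18, limma adjusted p = 0.0453). Glycogen genes moved in both directions: Gys2, the glycogen synthase of liver, fell from 55.6, 47.6 and 50 TPM to 30, 31.3 and 40.7 TPM, while Ppp1r3c, which brings a phosphatase to glycogen and so activates the synthase, rose from 7.73, 10.8 and 14.0 TPM to 17.8, 21.4 and 23.1 TPM. Apoc2, the activator of lipoprotein lipase, rose from 262.7, 316.3 and 311.7 TPM to 437.7, 449.1 and 376.9 TPM, and Gpcpd1, which splits glycerophosphocholine, fell from 14.7, 19.1 and 19.2 TPM to 7.95, 11.9 and 10.7 TPM. Apoc2 shares 78.8% of its words with an overlapping annotated transcript, so its value is uncertain to that extent. These 6 calls were among the least stable: leaving out young replicate 1 or 2 or aged replicate 1 ended all 6, aged replicate 2 or young replicate 3 ended 4, and any treated library ended 5 (limma adjusted p 0.0562 to 0.195).

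Beside Ppara, none of the other tested genes of fatty acid oxidation and PPAR-alpha targets was called. Of 39 tested, 31 had a negative log2 fold change and in 12 all aged values lay below all young ones, where 9.57% of all genes did. The list's median was -0.21 against -0.01 for all genes, and it stayed below 0 with any library left out (-0.30 to -0.15) and under 3 other scalings. Fgf21, a fasting hormone made by liver, was at 5.8, 1.13 and 2.28 TPM in young and at 0.477, 0.0808 and 0.22 TPM in aged libraries (limma adjusted p = 0.066). Angptl4, which blocks lipoprotein lipase, was at 73.6, 51.7 and 84.8 TPM in young and at 42.1, 31.6 and 43.1 TPM in aged libraries (0.0621), and Cpt1a, the entry step of mitochondrial fatty acid oxidation, was at 44.9, 40.0 and 45.1 TPM against 31.6, 35 and 31.7 TPM (0.073). Genes within the list did not all follow: Acadm, a dehydrogenase of the same route, had a log2 fold change of -0.02 and Cyp4a14, a classical target, of 0.29, with overlap in both. Without aged replicate 3, 8 members were called lower and 0 higher.

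Fatty acid synthesis genes showed a median of -0.35 over 19 tested members, of which 0 were called (13 were below 0, and in 4 all aged values lay below all young ones, as in 9.57% of all genes; without aged replicate 3, 1 was called lower). Elovl2, which lengthens polyunsaturated fatty acids, was at 117.8, 98.2 and 111.7 TPM in young and at 50.2, 66.9 and 78.3 TPM in aged libraries (limma adjusted p = 0.0771). Fasn itself had a log2 fold change of 0.02. Of 33 tested genes of triglyceride synthesis and lipid droplets, 0 were called and the median was -0.04; without aged replicate 3, 5 were called lower. Plin2, the main coat protein of hepatocyte lipid droplets, was at 314.2, 283.8 and 314.0 TPM in young and at 197.7, 173.7 and 256.5 TPM in aged libraries (limma adjusted p = 0.102, and 0.00753 without aged replicate 3). Cidea, a droplet protein, stood out in 1 library: 0.071, 0 and 0 TPM in young and 0.497, 0.0986 and 7.77 TPM in aged libraries. Cidec, its relative, was also highest in aged replicate 3 (8.02 TPM, against 0.653 to 2.77 TPM in the other 5 untreated libraries). Both are also markers of adipocytes, whose 9 markers summed to 15.5 to 26.2 TPM in young and 13.6 to 30.2 TPM in aged libraries with Lep and Ucp1 listed at 0. The part of that tissue in these values was not tested.

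Amino acid metabolism gave 5 rises and 2 falls. Gnmt, the glycine N-methyltransferase that uses up methyl groups, was at 1111.2, 1096.3 and 1112.6 TPM in young and at 1587.5, 1503.3 and 1559.7 TPM in aged replicates 1 to 3, with very little spread in either group (log2 fold change 0.49 ± 0.08, limma adjusted p = 0.0195). Cth, the enzyme that makes cysteine from cystathionine, rose from 155.6, 220.4 and 186.7 TPM to 306.9, 294.3 and 328.4 TPM (0.74 ± 0.13, limma adjusted p = 0.0278). The transporters Slc3a1, a subunit of the carrier of cystine and basic amino acids (chromosome 17, 85028347 to 85064241), Slc1a2, a glutamate carrier, and Slc25a29, a mitochondrial carrier of basic amino acids, also rose. Slc3a1 was at 18.2, 21.1 and 17.5 TPM in young and at 60.4, 47.5 and 36.3 TPM in aged libraries, and Slc1a2 at 13.5, 14.5 and 14.3 TPM against 24.1, 27.7 and 20.2 TPM. Slc38a2, a carrier of small neutral amino acids, fell from 24.6, 20.0 and 25.5 TPM to 11.9, 12.2 and 17.3 TPM. Hykk, which phosphorylates hydroxylysine (chromosome 9, 54917290 to 54949924), fell from 12.1, 11.7 and 11.1 TPM to 4.29, 3.87 and 6.69 TPM (-1.19 ± 0.16, limma adjusted p = 0.00798). Without young replicate 1, 2 or 3, 6, 4 and 5 of the 7 calls were lost, without aged replicate 1 or 2, 5 and 3, and without any 1 treated library, 2 (limma adjusted p up to 0.17).

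The wider list of amino acid breakdown and the urea cycle held 46 tested genes. Cth and Gnmt were called, both higher, where 0.650% of all genes were. In 11 of the 46 all aged values lay above all young ones, where 8.82% of all genes did, and 36 had a positive log2 fold change (median 0.13; 0.08 to 0.20 with 1 library left out). In the fit that omits aged replicate 3, 4 were called higher and 1 lower. Oat, ornithine aminotransferase of the pericentral cells, was at 215.0, 285.0 and 289.3 TPM in young and at 413.7, 319.3 and 414.6 TPM in aged libraries (limma adjusted p = 0.101). Prodh, proline dehydrogenase, was at 59.6, 71.2 and 66.0 TPM against 97.6, 88.5 and 77.7 TPM (0.102), and Glul, glutamine synthetase, at 186.7, 195.5 and 183.3 TPM against 238.1, 221.3 and 244.8 TPM (0.118). Cps1, the entry enzyme of the urea cycle, overlapped between the ages (log2 fold change 0.04). Of the pericentral genes 2 of 22 tested were called higher, Cyp2c37 and Slc1a2 (also 2 without aged replicate 3), against 0.650% of all genes. The list median was 0.21, and 18 of 22 were above 0. Periportal genes had a median of 0.09, with 3 of 21 called higher, against the same 0.650% of all genes. They were the growth factor carrier Igfbp2, the immunoglobulin receptor Pigr and the bile duct factor Sox9, none of them an enzyme. The periportal calls were 4 higher and 2 lower without aged replicate 3. Ass1 of the urea cycle was not called (limma adjusted p = 0.261).

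Growth factor signalling and transcription factors accounted for 3 rises and 5 falls. Lifr, a cytokine receptor subunit that binds leukemia inhibitory factor (chromosome 15, 7090610 to 7197489), was at 99.0, 89.7 and 113.4 TPM in young and at 43.3, 59.2 and 45.9 TPM in aged replicates 1 to 3. It fell by 1.02 on the log2 scale (± 0.13 SE, limma adjusted p = 0.00689) and was called in all 9 fits with a library left out. Il6st, the signalling chain that Lifr pairs with, was not called (limma adjusted p = 0.78). Igfbp2, a carrier of insulin-like growth factors, rose from 313.6, 341.9 and 307.7 TPM to 552.4, 573.1 and 602.0 TPM (0.84 ± 0.12, limma adjusted p = 0.00798). Igf1 was at 142.1, 179.3 and 160 TPM in young and at 138.9, 138.5 and 142.0 TPM in aged libraries, and the growth hormone receptor gene Ghr at 159.2, 165.1 and 160.3 TPM against 120.3, 131.1 and 152.2 TPM; neither was called (limma adjusted p = 0.449 and 0.237; Ghr 0.041 without aged replicate 3). Of 37 tested genes of growth hormone, insulin-like growth factor and nuclear hormone signalling, Igfbp2 was called higher and Lifr lower. Of all genes, 0.650% and 0.453% were. In 9 of the 37 all aged values lay below all young ones, where 9.57% of all genes did, and the median was -0.22. Without aged replicate 3 that median was -0.08, with 2 called higher and 6 lower.

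Hhex, a homeobox factor of liver and bile duct development (chromosome 19, 37434841 to 37440731), fell from 89.5, 104.8 and 74.1 TPM to 34.9, 47.3 and 31.6 TPM (-1.23 ± 0.23, limma adjusted p = 0.0362). Id1, a target of bone morphogenetic proteins (chromosome 2, 152736251 to 152737410), rose from 5.61, 7.2 and 7.22 TPM to 16.8, 21.8 and 12.6 TPM (1.27 ± 0.21, limma adjusted p = 0.0199). Hamp, the iron hormone that bone morphogenetic proteins control, was not called (2427.9, 2195.9 and 2043.1 TPM in young; 3276.5, 2075.2 and 4138.7 TPM in aged libraries; limma adjusted p = 0.347). Sox9, a factor of bile duct cells, rose from 0.397, 0.746 and 0.588 TPM to 1.97, 1.89 and 1.25 TPM. The 14 cholangiocyte markers, of which 5 were tested, together held 339.3 to 368.7 TPM in young and 334.6 to 421.1 TPM in aged libraries. Most of that sum came from Krt8 and Krt18 (142.6 and 173.4 TPM of 357.6 TPM in young replicate 1), neither of which was called. The sum therefore says little about the other markers. Vgll4, a cofactor that restrains TEAD transcription factors, fell from 6.27, 5.81 and 5.71 TPM to 3.55, 2.46 and 2.61 TPM, and Flcn, a nutrient sensor at lysosomes, from 11.9, 9.26 and 11 TPM to 6.19, 5.54 and 7.29 TPM. Cebpa and Cebpb, master factors of hepatocyte genes, had log2 fold changes of -0.07 and 0 (limma adjusted p = 0.817 and 0.996). Of these 8 calls, young replicate 1, 2 or 3 left out ended 7, 6 and 5, aged replicate 1 or 2 ended 5 and 3, and treated replicate 1, 2 or 3 ended 2, 3 and 2 (limma adjusted p 0.0514 to 0.197).

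Of 6 called genes of the secretory pathway, grouped after their values were seen, 5 rose and 1 fell. Dnajb9, a co-chaperone that holds back the stress sensor IRE1 (chromosome 12, 44205897 to 44210068), was at 9.11, 8.59 and 12.2 TPM in young and at 36.8, 27.6 and 21.9 TPM in aged libraries (1.47 ± 0.27, limma adjusted p = 0.0399). Creb3l2, a transcription factor released from the endoplasmic reticulum under stress, rose from 1.53, 1.12 and 1.35 TPM to 3.98, 4.0 and 2.48 TPM. Enzymes that add mannose to proteins rose as well: Alg2, of N-glycan synthesis, from 3.06, 2.63 and 3.93 TPM to 9.6, 8.71 and 5.55 TPM, and Dpy19l3, of tryptophan mannosylation (chromosome 7, 35685500 to 35754460), from 1.51, 1.62 and 1.63 TPM to 4.41, 5.64 and 5.04 TPM. Pigr, which carries immunoglobulin A into bile, rose from 167.0, 206.7 and 174.4 TPM to 301.2, 298.0 and 281.2 TPM, and Fkbp11, a folding enzyme of secretory cells, fell from 36.3, 35.3 and 32.2 TPM to 20.5, 16 and 19.1 TPM. The main chaperone gene Hspa5 was not called (486.6, 365.6 and 301.7 TPM; 731.8, 393.4 and 362.7 TPM). Xbp1, the transcription factor of the same response, was at 124.9, 126.4 and 120.2 TPM in young and at 203.7, 252.3 and 89.9 TPM in aged libraries, with aged replicate 3 below the young ones (limma adjusted p = 0.593, and 0.00348 without it). Of 36 tested genes of this stress response, 1 was called with all libraries, higher, where 0.650% of all genes were. Without aged replicate 3, 5 were called, all higher, where 3.72% of all genes were. In the list 21 were above 0 and 15 below, with a median of 0.12 (-0.01 to 0.24 with 1 library left out). Chac1 was at 3.15, 2.28 and 1.47 TPM in young and at 0.902, 1.12 and 0.618 TPM in aged libraries (limma adjusted p = 0.0731). Leaving out young replicate 1, 2 or 3 ended 5, 4 and 3 of the 6 secretory pathway calls, and aged replicate 1 or 2 ended 3 each. Treated replicate 1 ended 1 and treated replicate 3 ended 2. Dpy19l3 was called in every such fit (limma adjusted p of lost calls up to 0.17).

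The called interferon-inducible genes fell, with 1 exception. Gbp11, of the guanylate-binding protein family but annotated as a transcribed pseudogene (chromosome 5, 105323026 to 105346476), was at 6.42, 6.85 and 3.54 TPM in young and at 0.876, 2.15 and 1.36 TPM in aged libraries (-1.64 ± 0.31, limma adjusted p = 0.0362). Gbp6 fell from 2.27, 2.34 and 3.52 TPM to 0.989, 0.73 and 1.29 TPM, the chemokine gene Cxcl9 from 2.45, 2.35 and 2.79 TPM to 1.12, 0.881 and 1.01 TPM, and Usp18, which damps interferon signalling, from 4.19, 3.62 and 4.32 TPM to 2.39, 1.58 and 2.39 TPM. The exception was Ifi27l2b (chromosome 12, 103450898 to 103457223), which rose from 1.39, 2.56 and 2.62 TPM to 12, 19.7 and 10.7 TPM, the largest rise among the 112 called genes on the log2(TPM + 0.5) scale (2.43 ± 0.26, limma adjusted p = 0.00458), while the related Ifi27l2a was at 14.2, 17.1 and 12.6 TPM in young and 8.64, 7.95 and 8.75 TPM in aged libraries (-0.75, limma adjusted p = 0.0521). Of 38 tested members of the interferon list, 4 were called lower and 1 higher, where 0.453% and 0.650% of all genes were. In the list 31 were below 0, and in 14 all aged values lay below all young ones, where 9.57% of all genes did. Its median of -0.37 ranged from -0.41 to -0.27 with 1 library left out, and without aged replicate 3, 8 members were called lower and 1 higher. Guanylate-binding protein genes share sequence (74.3% of the words of Gbp6 occur in other genes and 34.3% of those of Gbp11), so they are not independent evidence.

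In bulk liver, fewer cells of a type and less RNA per cell cannot be told apart. The 16 Kupffer cell and macrophage markers, none at 0, summed to 214.2, 290.6 and 314.0 TPM in young and to 265.4, 205.2 and 270.4 TPM in aged libraries. All 16 were tested, 13 were below 0 and 0 were called, and their part in the interferon values was not tested. Zap70, a kinase of T cells, rose from 3.0, 4.72 and 4.01 TPM to 8.16, 6.44 and 8.75 TPM, but the 20 T cell and NK cell markers summed to only 5.74 to 7.07 TPM in young and 4.88 to 6.41 TPM in aged libraries. Ticam1, an adaptor of Toll-like receptors, rose from 2.98, 3.15 and 3.35 TPM to 7.31, 5.93 and 5.3 TPM. Of these 2 genes and the 5 interferon genes, all but 1 call was lost without young replicate 1 or 2 or aged replicate 1; 5 were lost without young replicate 3 3 without aged replicate 2, and 2, 2 and 3 without treated replicate 1, 2 or 3 (limma adjusted p 0.0515 to 0.187). The call of Ifi27l2b held in every fit.

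The 4 called genes of matrix and sinusoid all fell. Col3a1, a fibrillar collagen (chromosome 1, 45311538 to 45349706), was at 6.56, 4.8 and 4.95 TPM in young and at 1.68, 2.35 and 2.36 TPM in aged replicates 1 to 3, with every aged value well below the lowest young one (-1.17 ± 0.19, limma adjusted p = 0.0186). Dpt, a small matrix protein, fell from 3.87, 2.84 and 2.27 TPM to 1.52, 0.947 and 0.839 TPM, and Sparc, a matrix-binding protein, from 22.8, 19.7 and 22.3 TPM to 11.4, 14.6 and 14.2 TPM. Lyve1, a receptor of sinusoidal endothelium, fell from 2.04, 1.6 and 2.58 TPM to 1.11, 0.3 and 0.522 TPM. Col1a1 was at 1.67, 1.18 and 1.17 TPM against 0.604, 1.03 and 0.391 TPM and was not called (limma adjusted p = 0.28), and Col1a2 was at 2.58, 2.38 and 2.35 TPM against 1.06, 1.53 and 0.889 TPM (0.108). Of 30 tested genes of collagens, laminins and matrix, 2 were called, both lower, where 0.453% of all genes were, and without aged replicate 3, 3 were called, all lower. In 9 of the 30 all aged values lay below all young ones, where 9.57% of all genes did, and 24 were below 0 (median -0.20; -0.31 to -0.16 with 1 library left out). The 18 stellate cell markers summed to 176.8 to 186.5 TPM in young and to 130.8, 182.6 and 154.2 TPM in aged libraries, with 2 called lower and 16 below 0. The 19 sinusoidal endothelial markers summed to 163.2 to 175.0 TPM and 155.3 to 182.8 TPM, and the part of either cell type in the matrix values was not tested. All 4 calls were lost without any 1 young library, and 2 without aged replicate 1, aged replicate 2 or treated replicate 3 (limma adjusted p 0.0505 to 0.17).

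The largest functional group, 14 genes, acts on RNA or DNA in the nucleus. Rises were seen for Alyref, an mRNA export factor, Sf3a2, of the spliceosome, Wdr74 and Ngdn, of ribosome assembly, Rpp40, of ribonuclease P, and Polr2l, a subunit of RNA polymerases. Sf3a2 was at 8.41, 10.2 and 8.14 TPM in young and at 17.4, 17.3 and 12.1 TPM in aged libraries. Wdr74 rose from 15.3, 14.8 and 14.6 TPM to 21.9, 23.7 and 21.7 TPM, and Polr2l from 36.6, 39.4 and 37.2 TPM to 51.5, 48.5 and 58.6 TPM. Alyref was at 7.87, 6.91 and 9.24 TPM in young and at 14.8, 13.3 and 11.8 TPM in aged libraries, and Ngdn at 16.2, 18.9 and 17.1 TPM against 32.4, 26.1 and 26.5 TPM. H2afx, the histone variant that marks broken DNA, rose from 8.02, 8.65 and 10.1 TPM to 23, 18.6 and 15.9 TPM (1.05 ± 0.17, limma adjusted p = 0.0175), and Mgmt, which repairs alkylated guanine, from 22.8, 25.8 and 25.2 TPM to 34.6, 39.0 and 34.7 TPM. Of 22 tested DNA repair genes on the list, 0 were called (median -0.0045, of either sign under other settings). Snrpn, an imprinted spliceosome gene, rose from 1.82, 2.51 and 4.12 TPM to 6.48, 5.7 and 8.2 TPM.

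Falls in this group were those of Malat1, an abundant nuclear long noncoding RNA (63.4, 62.5 and 51.7 TPM in young; 33.7, 42.5 and 36.5 TPM in aged libraries), Clk1, a kinase of splicing factors (23.1, 28.0 and 25.4 TPM; 13.9, 16.2 and 18.1 TPM), and Pdcd4, an inhibitor of translation (32.4, 35.6 and 29.1 TPM; 21.4, 20.3 and 24.7 TPM). Mcm10, a replication factor, fell from 32.4, 28.9 and 33.5 TPM to 23.5, 18.2 and 21 TPM. Scarna6, a small RNA of Cajal bodies, was at 2.33, 2.6 and 1.02 TPM in young libraries and listed at 0 in all 3 aged and all 3 treated libraries (limma adjusted p = 0.00458), a call that its passing the filter through the young libraries alone deprives of weight; small RNAs of this kind are read poorly by standard libraries. These nuclear RNA calls were fragile: of the 14, young replicate 1, 2 or 3 left out ended 13, 13 and 8, aged replicate 1 or 2 ended 12 and 10, and treated replicate 1, 2 or 3 ended 8, 6 and 9 (limma adjusted p 0.0508 to 0.17). Genes of the cytosolic ribosome and of the respiratory chain gave 0 calls among 78 and 68 tested, with medians of 0.04 and 0.02, both of which changed sign under other scalings.

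Circadian clock genes separated the aged libraries from each other as well as from the young ones. The clock runs as a loop: the activators CLOCK and ARNTL (BMAL1) bind E-boxes and switch on Per, Cry, Dbp, Tef and the Nr1d genes, the PER and CRY proteins block the activators, and the NR1D (REV-ERB) proteins repress Arntl and Nfil3. DBP and TEF activate, and NFIL3 represses, genes with D-boxes. Called were Ccrn4l, now named Noct, a clock-controlled deadenylase-like protein (chromosome 3, 51224447 to 51251654), Cry1 and Nfil3, all higher. Ccrn4l was at 3.16, 2.66 and 6.68 TPM in young and at 31.3, 22.3 and 14.3 TPM in aged replicates 1 to 3 (2.34 ± 0.35, limma adjusted p = 0.0221). Of its 31-base words, 39.0% occur in other genes, and how such reads were divided was not tested. Cry1 was at 2.51, 1.94 and 1.49 TPM against 4.4, 6.02 and 4.71 TPM, and Nfil3 at 8.45, 9.87 and 9.96 TPM against 22.4, 14.8 and 18.4 TPM. None of the 112 called genes overlapped between the ages. In these 3 genes, as in every called gene, aged replicate 3 thus sided with the other aged libraries.

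In other clock genes it did not. Dbp was at 14.0, 14.8 and 6.51 TPM in young, at 0.645 and 0.576 TPM in aged replicates 1 and 2 and at 14.3 TPM in aged replicate 3. Nr1d1 was at 28.5, 30.9 and 24.6 TPM in young and at 12.5, 10.6 and 41.4 TPM in aged replicates 1 to 3, the last the highest of the 6. Nr1d2 was at 10.3, 9.6 and 10.1 TPM against 4.51, 4.93 and 9.88 TPM, Tef at 21.4, 19.6 and 16.3 TPM against 8.77, 8.85 and 18.9 TPM, and Per3 at 2.54, 1.6 and 1.17 TPM against 0.305, 0.456 and 1.77 TPM. In all 5 genes aged replicates 1 and 2 lay below every young library and aged replicate 3 within or above the young range. With all libraries none of the 5 was called (limma adjusted p 0.268 to 0.55 with log2 fold changes from -2.14 for Dbp to -0.64 for Nr1d1). Without aged replicate 3 all 5 were lower, Dbp by -3.38 (limma adjusted p = 0.0394) and Nr1d1 by -1.24 (0.000256). The 5 genes were grouped by this split, and the library was left out after its values were seen. Their fall without it was thus fixed by the choice, and these adjusted p-values add no support. Arntl, in the opposite phase of the loop, was at 2.57, 2.97 and 2.6 TPM in young and at 4.6, 5.23 and 3.36 TPM in aged libraries (limma adjusted p = 0.294). The time of day at which the livers were taken is not given in the sources used here, and its part in these values was not tested.

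Of 26 tested clock genes and outputs 3 were called, all higher, where 0.650% of all genes were. The median of 0.01 changed sign with the library left out, and without aged replicate 3, 6 were higher and 5 lower. Cdkn1a, a cell cycle inhibitor that the clock also controls, was at 1.2, 1.22 and 2.03 TPM in young and at 10.3, 12.3 and 3.71 TPM in aged libraries (2.10, limma adjusted p = 0.0616; 2.60 and 0.0014 without aged replicate 3). Por, the electron donor of all microsomal P450 enzymes, was at 59.0, 52.1 and 58.1 TPM against 85.2, 90.4 and 70.8 TPM (0.0616). The calls of Ccrn4l, Cry1 and Nfil3 were all lost without young replicate 1 or 2, 1 was lost without young replicate 3, and 2 were lost without aged replicate 1 or aged replicate 2 (limma adjusted p 0.0537 to 0.116).

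The promoters of 5 of these genes are shown because they hold the elements of the loop, written 5′ to 3′ on the strand of the gene, from RefSeq on GRCm38.p6, 250 bases before to 50 bases after an annotated start. Capitals mark a match to the E-box CACGTG, to TAGGTCA, the core bound by REV-ERB and ROR receptors, or to the D-box TTATGTAA, searched on both strands, none of which overlap. Nfil3, called higher, and Arntl, not called but above the young range in all aged libraries, hold the REV-ERB and ROR core, in Nfil3 on the opposite strand. The Arntl window shown is 1 of 2 and its match lies after the start, while the window of the other Arntl start site holds no match. Cry1 and Tef hold an E-box, although Cry1 was higher in all aged libraries and Tef lower in 2 of the 3, and Per3 holds 2 D-boxes.
Nfil3 promoter, chr13:52980990-52981289, minus strand: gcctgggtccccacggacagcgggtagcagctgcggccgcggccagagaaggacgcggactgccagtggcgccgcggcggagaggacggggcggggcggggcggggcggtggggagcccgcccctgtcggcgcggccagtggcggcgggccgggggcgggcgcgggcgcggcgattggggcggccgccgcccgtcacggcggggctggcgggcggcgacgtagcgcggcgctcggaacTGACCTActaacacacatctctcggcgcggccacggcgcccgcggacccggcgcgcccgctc
Arntl promoter, chr7:113207261-113207560, plus strand: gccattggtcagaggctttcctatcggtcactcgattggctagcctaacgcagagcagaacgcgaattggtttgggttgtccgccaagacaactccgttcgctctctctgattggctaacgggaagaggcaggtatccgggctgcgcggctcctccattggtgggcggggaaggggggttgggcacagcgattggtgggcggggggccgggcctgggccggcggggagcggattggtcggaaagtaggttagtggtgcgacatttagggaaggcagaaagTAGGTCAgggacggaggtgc
Cry1 promoter, chr10:85185005-85185304, minus strand: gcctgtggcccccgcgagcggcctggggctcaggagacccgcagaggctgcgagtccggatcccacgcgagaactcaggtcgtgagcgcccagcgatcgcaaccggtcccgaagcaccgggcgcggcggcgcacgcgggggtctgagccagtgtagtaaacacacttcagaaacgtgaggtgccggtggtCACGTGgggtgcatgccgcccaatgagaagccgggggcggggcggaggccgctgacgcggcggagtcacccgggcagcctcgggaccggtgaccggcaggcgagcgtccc
Tef promoter, chr15:81802423-81802722, plus strand: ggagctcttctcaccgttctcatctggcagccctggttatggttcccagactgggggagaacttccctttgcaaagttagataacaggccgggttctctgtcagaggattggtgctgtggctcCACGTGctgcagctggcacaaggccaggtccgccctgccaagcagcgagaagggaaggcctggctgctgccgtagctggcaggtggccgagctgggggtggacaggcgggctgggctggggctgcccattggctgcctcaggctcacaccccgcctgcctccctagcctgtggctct
Per3 promoter, chr4:151044616-151044915, minus strand: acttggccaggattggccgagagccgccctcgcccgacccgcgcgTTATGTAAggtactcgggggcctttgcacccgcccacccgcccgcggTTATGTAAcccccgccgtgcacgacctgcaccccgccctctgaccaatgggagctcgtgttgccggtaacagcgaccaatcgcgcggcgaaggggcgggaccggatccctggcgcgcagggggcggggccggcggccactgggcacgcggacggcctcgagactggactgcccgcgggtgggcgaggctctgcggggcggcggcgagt

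Of the 26 tested clock genes 23 matched a promoter by symbol, with 31 start sites in all. The E-box was present at 6 of the 31, against 7.15% of 32851 promoters, the REV-ERB and ROR core at 3 (2.61% of all) and the D-box at 1 (0.94% of all), and 21 held none of the 3. Among those without a match were the windows of Dbp, Nr1d1 and Nr1d2. A match describes letters in this window and is not evidence of binding.

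**Figure D4:**
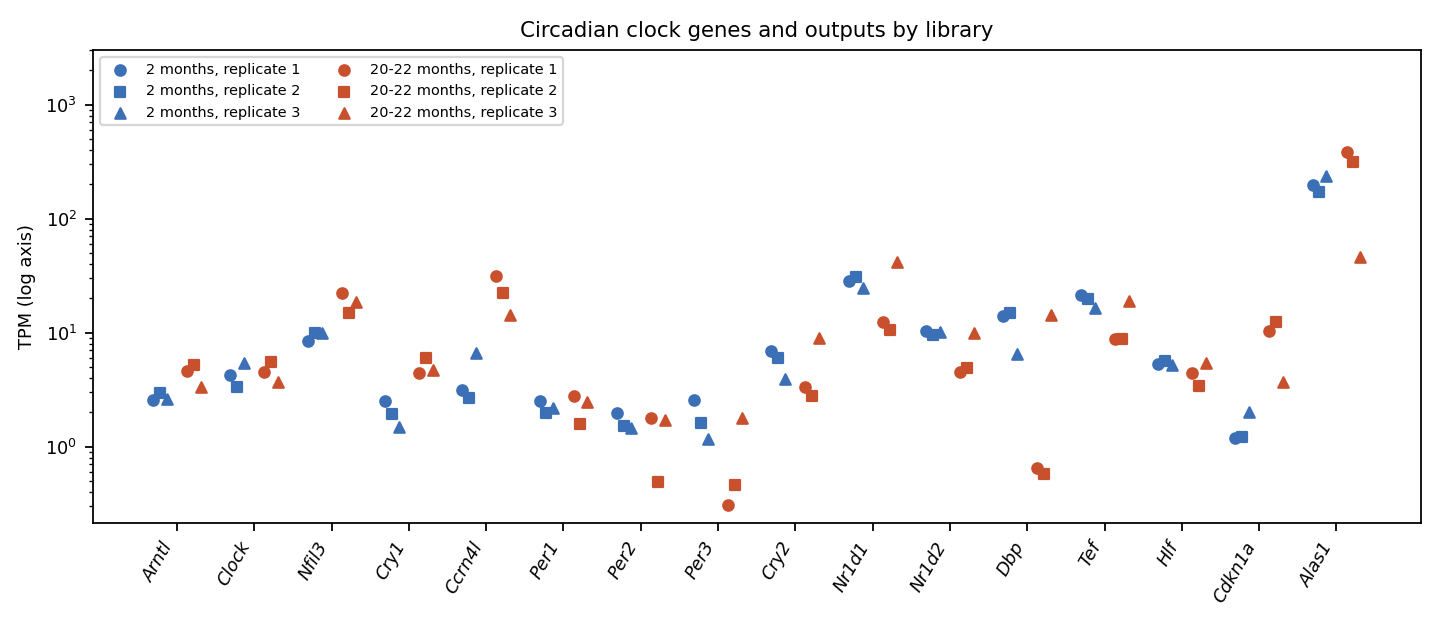
TPM of 16 clock genes and outputs by library on a log axis (blue, 2 months; red, 20 to 22 months; the symbol gives the replicate). For Nr1d1, Nr1d2, Dbp, Tef and Per3, aged replicates 1 and 2 lie below the young libraries and aged replicate 3 (red triangle) lies within or above them; Nfil3, Cry1 and Ccrn4l are higher in all 3 aged libraries.

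Acute phase and metal-binding genes spread widely within the aged group. Of 31 tested acute phase genes 29 had a positive log2 fold change (median 0.63, and 0.30 to 0.90 with 1 library left out). With all libraries 0 were called. In the fit without aged replicate 3, which called 3.72% of all genes higher, 13 were called, all higher. Saa1, serum amyloid A, was at 38.3, 1481.8 and 52.3 TPM in young and at 6008.2, 221.9 and 123.3 TPM in aged libraries. Young replicate 2 and aged replicate 1 were thus far above the rest of their groups. Orm2 followed the same pattern, with 6.04, 81.9 and 9.74 TPM in young and 633.8, 78.1 and 35.1 TPM in aged libraries. The 14 neutrophil markers summed to 5.24, 23.8 and 5.0 TPM in young and to 508.2, 34.5 and 18.2 TPM in aged libraries, but Lcn2, which hepatocytes also secrete in the acute phase, made up 481.2 TPM of the highest sum. Of these markers 4 were tested, Ngp and Stfa2 were listed at 0, and S100a8 was at 1.23 to 1.4 TPM in young and at 9.99, 3.64 and 2.24 TPM in aged libraries (limma adjusted p = 0.145). Their part in the acute phase values was not tested. Lrg1, a glycoprotein of the same response, was at 294.7, 463.9 and 293.8 TPM against 1310.3, 727.0 and 555.2 TPM without overlap (limma adjusted p = 0.122).

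Mt1 and Mt2, the metallothioneins that bind zinc and copper, had wider ranges. Mt1 was at 57.6, 95.2 and 94.6 TPM in young and at 1706.0, 1056.7 and 22.9 TPM in aged replicates 1 to 3. Mt2 was at 20.4, 38.3 and 44.2 TPM in young and at 1835.1, 1044.0 and 15.2 TPM in aged libraries. Replicates 1 and 2 exceeded every young library more than 10 times and replicate 3 lay below all of them, so neither was called (limma adjusted p 0.599 and 0.461; 0.00024 and 0.00143 without aged replicate 3). Alas1 followed the same order, at 196.6, 171.5 and 235.1 TPM in young and 380.8, 313.4 and 45.7 TPM in aged libraries. Slc40a1, the iron exporter ferroportin, was at 29.7, 25.9 and 34.8 TPM against 21.5, 24.1 and 19.6 TPM (limma adjusted p = 0.114), and Tfrc, the transferrin receptor, at 3.59, 3.04 and 4.58 TPM against 5.52, 6.76 and 6.11 TPM (0.0711).

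**Figure D5:**
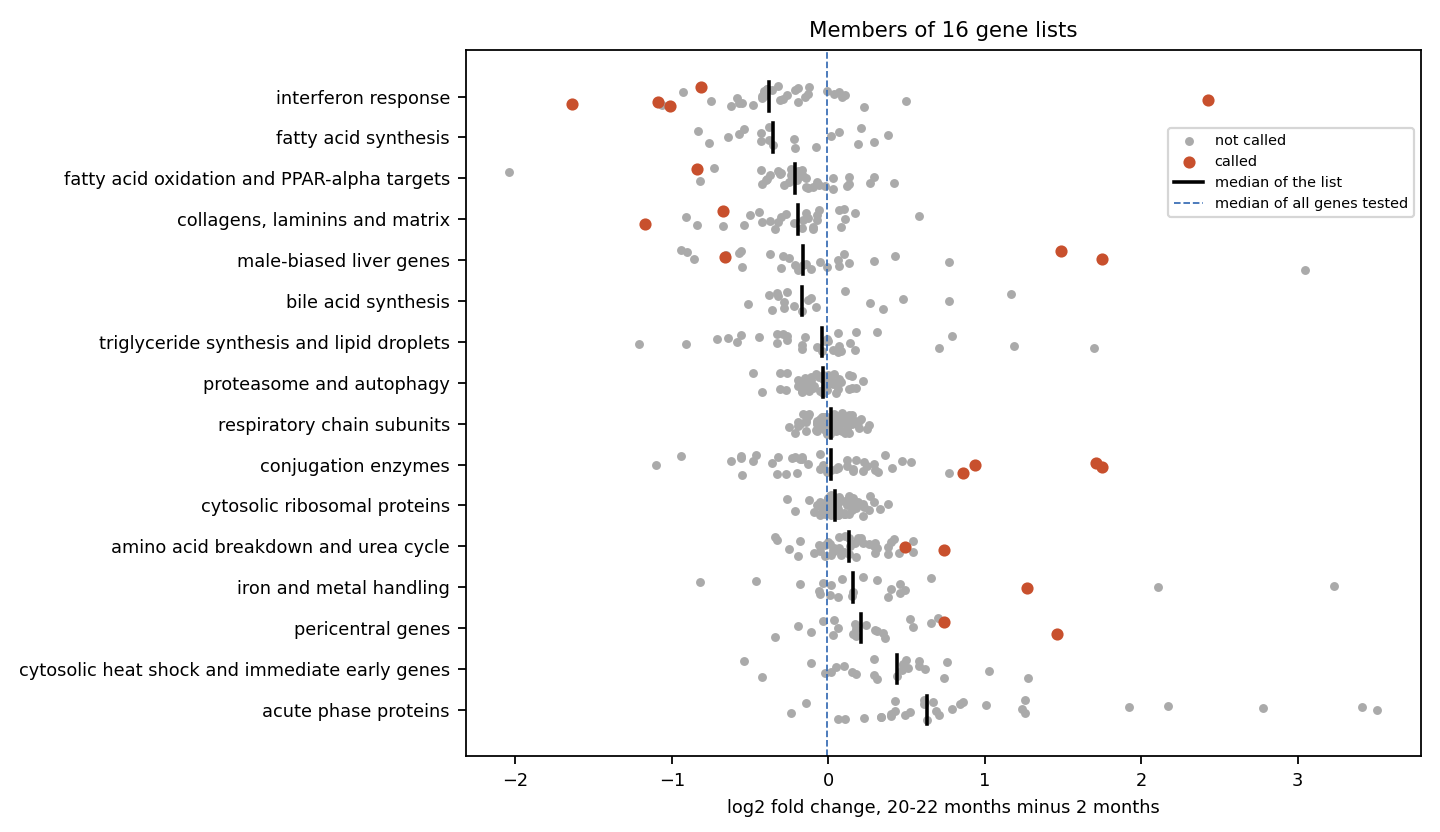
Log2 fold change, 20 to 22 months minus 2 months, of every tested member of 16 gene lists; red points passed limma's adjusted p of 0.05, grey points did not, the black bar is the list's median and the dashed line the median of all genes tested (-0.01). Medians run from -0.37 for the interferon response to 0.63 for acute phase proteins, while respiratory chain and ribosomal genes lie within 0.4 of 0.

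The lists of bile acid synthesis and of heat shock and immediate early genes gave 0 calls with all libraries. Of 19 tested bile acid genes 13 were below 0, with a median of -0.17 (-0.24 to -0.06 with 1 library left out) and 2 calls in each direction without aged replicate 3. Cyp7a1, the rate-limiting enzyme of bile acid synthesis, was at 18.1, 16.6 and 47.4 TPM in young and at 12.7, 29.8 and 20.6 TPM in aged libraries, with overlap (limma adjusted p = 0.822). Nr0b2 (SHP), the repressor of Cyp7a1, was at 19.4, 16.5 and 18.5 TPM against 35.4, 27.2 and 73.4 TPM (0.122; 0.00766 without aged replicate 3), and Cyp7b1, of the alternative route, at 94.5, 103 and 178 TPM against 210.4, 173.1 and 238.4 TPM (0.132). Of 25 tested heat shock and immediate early genes 21 were above 0, with a median of 0.44 (0.24 to 0.52 with 1 library left out), and without aged replicate 3, 6 were called higher and 1 lower. Bag3, a partner of heat shock protein 70, was at 8.2, 8.01 and 12.1 TPM against 36, 26.5 and 13 TPM (limma adjusted p = 0.146), and Jund, one of the AP-1 factors, at 23.9, 27.7 and 26.1 TPM against 36.4, 44.8 and 35.9 TPM (0.0692).

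The lists of cell division and of cell cycle arrest genes gave 0 calls, although the replication factor Mcm10, described above, fell. Cdk4, the kinase in the title of the series, was at 26.0, 22.9 and 22.8 TPM in young and at 22.1, 27.0 and 25.2 TPM in aged libraries, with overlap (log2 fold change 0.05, limma adjusted p = 0.896). Ccnd1, its cyclin partner, was at 5.53, 3.07 and 5.01 TPM against 5.46, 10.6 and 7.34 TPM (0.71, limma adjusted p = 0.279). Of 15 tested cell division genes 0 were called, with a median of 0.36 (1 higher without aged replicate 3), and of 21 tested genes of cell cycle arrest and p53 targets 0 were called, with a median of 0.03 that changed sign with a library left out (2 higher and 2 lower without aged replicate 3). Cdkn2a, the senescence marker that encodes p16, stayed under the filter on low values: it was at 0.0705, 0 and 0.151 TPM in young and at 0.279, 0.363 and 0.469 TPM in aged libraries, higher in each aged library but below 1 TPM, and was not tested. Mki67, a marker of dividing cells, was also under the filter, at 0.25, 0.221 and 0.25 TPM in young and at 0.0654, 0.623 and 0.516 TPM in aged libraries. Of 16 tested secreted factors of senescent cells, only Serpine2 was called, higher, where 0.650% of all genes were. The list's median was -0.10 (-0.21 to 0.09 with 1 library left out), with 7 members above 0 and 9 below. Cxcl1 was at 3.6, 3.71 and 2.47 TPM in young and at 28.1, 13.2 and 7.03 TPM in aged libraries (1.95, limma adjusted p = 0.0818, and 0.00439 without aged replicate 3). Igfbp3 went the other way, from 7.53, 5.69 and 7.54 TPM to 4.47, 3.76 and 2.99 TPM (-0.81, limma adjusted p = 0.121).

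Called genes outside these groups numbered 39, 8 of them with predicted or clone names. Atp11a, a phospholipid flippase, rose from 0.618, 0.274 and 0.384 TPM to 6.69, 3.48 and 2.6 TPM (2.28 ± 0.28, limma adjusted p = 0.00676). Smim22, a small membrane protein (chromosome 16, 5007288 to 5008309), was at 12.4, 12.6 and 9.11 TPM in young and at 31.3, 34.9 and 23 TPM in aged libraries, and Adam11 at 2.59, 2.76 and 3.04 TPM against 8.14, 7.66 and 5.28 TPM. Slc16a5, of the monocarboxylate transporter family, rose from 1.19, 0.807 and 1.36 TPM to 3.1, 6.65 and 2.82 TPM. Among falls, Hcn3, an ion channel, went from 4.85, 3.37 and 5.88 TPM to 1.2, 1.91 and 0.876 TPM, Cabyr from 5.89, 4.29 and 4.09 TPM to 1.74, 1.41 and 2.17 TPM, Wsb1, a ubiquitin ligase subunit, from 17.0, 14.5 and 13.9 TPM to 5.85, 8.25 and 8.09 TPM, and Lgals4, a galectin, from 15.1, 12.7 and 13.6 TPM to 6.86, 7.5 and 8.64 TPM. Grpel2, a co-chaperone of mitochondrial import, fell from 12.7, 11.1 and 10.6 TPM to 4.69, 5.4 and 7.35 TPM and Wbp5 from 14.2, 14.5 and 17.8 TPM to 8.55, 10.3 and 8.11 TPM. Of 29 tested male-biased genes 2 were called higher, Gstp2 and Susd4, and 1 lower, Keg1 (median -0.16; 3 higher and 5 lower without aged replicate 3). Of 16 tested female-biased genes 1 was called higher, Cyp2b10, and 2 lower, Cyp2c40 and Cyp2c69 (median 0.08, of either sign with a library left out; 2 and 2 without aged replicate 3). Over all genes 0.650% were called higher and 0.453% lower. Among uncalled male-biased genes, the steroid enzyme gene Hsd3b5 was at 190.4, 224.7 and 223.4 TPM in young and at 90.2, 110.6 and 157.9 TPM in aged libraries (limma adjusted p = 0.0868, and 0.0056 without aged replicate 3). C4a, also on the male-biased list, lay above the young range as given above. Mup3, a major urinary protein of male liver, was at 9227.6, 13174.2 and 10979.2 TPM against 6215.9, 6914.1 and 8110.4 TPM (0.0712).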

How the data were processed

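Liver RNA sequencing gave 9 libraries, 3 per group. The authors deposited 1 table of TPM per library, made with kallisto against mm10 per the submitters' processing notes; its version, the transcript models and how transcripts were summed per gene: not given in the sources used here. Each table lists 23444 symbols. The 4 rows whose symbol occurs more than once were left out, 6604 of the others were at 0 in all libraries, and the listed TPM summed to 53.1% to 57.7% of the full scale. TPM keeps no depth, so the depth and counting error are unknown and no count test was run. Values were analysed as log2(TPM + 0.5), which understates changes of low genes, keeping genes that reached 1 TPM in 3 or more of the 9 libraries. limma 3.58.1 in R 4.3.3 fitted the 3 groups of 3 libraries in 1 model (trend and robust variance) and tested aged minus young two-sided, with Benjamini-Hochberg adjustment over all 10161 genes. The fit was tested on simulated data. The members and the 51 gene lists were chosen with earlier results of these data known; lists are described by counts and medians without a test. Named are called genes other than predicted or clone names, up to 7 members per list by smallest p, and 15 set genes (among them Cdk4, Cdkn1a and Dbp); others were chosen after their values were seen. Per-library sums were compared by exact permutation tests in Python 3.11.15 with scipy 1.17.1. Shared sequence was counted over words of 31 bases in GENCODE M21 transcripts. Gene positions are from RefSeq, and RefSeq promoters were aligned with Biopython 1.88. Replicate numbers did not pair the libraries. Alternatives changed the pseudocount, the filter, the scaling, the variance model, a replicate block and the libraries in the fit. Values are given for a part of the called genes only, and 1 that fell is not reported here.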

Additional observations from a re-analysis of the deposited data

How the results depend on the processing

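The 112 calls (66 higher, 46 lower) fell to 49 (32 and 17) with only the 6 untreated libraries, under either filter, to 62 (40 and 22) without the filter on low values, which adds genes to the adjustment, and to 66 (43 and 23) without trend and robust estimation, and rose to 490 (267 and 223) with array weights; the cause was not tested. Leaving out 1 library gave 16 to 696 calls (12 to 378 higher and 4 to 318 lower). By library the counts were 16, 38 and 50 for young replicates 1 to 3, 40, 64 and 696 for the untreated aged ones and 78, 88 and 68 for the treated ones. With other pseudocounts, a filter at 5 TPM, or 3 other scalings the count was 93 to 126, and the share of higher calls, 58.9% in the reported fit, was 50.9% with equal listed totals and 52.4% with quantile normalization. Same-numbered young and aged libraries deviated in opposite directions (correlations of -0.114, -0.220 and -0.162), so the numbers were not taken to pair them; the fit with a replicate block called 91 genes, 73 of them among the 112. Of the 112, 41 stayed called under every alternative that kept all 9 libraries and tested them, and no call reversed its direction under any alternative. TPM gives no depth, so changes of genes near 1 TPM are the least certain.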
